A study of Mus musculus with 6 samples.

Results

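The transcripts examined here encode p53 and the proteins that carry out growth arrest when a Ras oncogene is active: *Trp53*, its targets *Cdkn1a*, *Mdm2* and *Ccng1*, the cyclin-dependent kinase inhibitors *Cdkn2a*, *Cdkn2b*, *Cdkn2c* and *Cdkn1b*, the retinoblastoma gene *Rb1*, and *Lmnb1*, the nuclear lamin whose loss marks senescent cells. These 10 genes were taken by symbol from the 23997 symbols listed for each library. RNAseq had been carried out on gastrocnemius muscle, the large muscle of the calf, with 1 library per mouse. The HrasG12V group (mice 2276, 2278 and 2279) had the genotype HrasG12V/+ and carried Caggs-Cre, a transgene that expresses Cre recombinase in most tissues, so the G12V allele, under the *Hras* promoter of its own, was switched on well beyond the muscle. The WT littermates (mice 2277, 2280 and 2281) were Hras+/+ by label and lacked Cre, but they carried the same floxed G12V allele in its unrecombined form. All 6 mice were 21 days old, untreated, and of a mixed SWR/J, 129S1/SvImJ and C57BL/6J background. The muscle was sequenced whole, so fewer cells of a type and less RNA per cell cannot be told apart.

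An activated Ras allele can drive cells into a lasting arrest known as oncogene-induced senescence. The Arf product of *Cdkn2a* then holds back Mdm2, the ubiquitin ligase that degrades p53, and p53 induces *Cdkn1a*, whose product p21 inhibits the cyclin-dependent kinases. In parallel p16, the other product of *Cdkn2a*, keeps Rb unphosphorylated and E2F target genes silent. In skeletal muscle, p21, p27 (*Cdkn1b*), p18 (*Cdkn2c*) and Rb are also known for a different duty, the permanent exit from the cell cycle when myoblasts become fibers. p53 is controlled mostly at the level of its protein, which RNAseq does not measure.

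FPKM counts mapped fragments per kilobase of a gene's transcript after the libraries were scaled, so levels can be compared between genes per unit of length. Differences between genotypes were computed as log2(FPKM + 0.1) with limma over 13359 genes that had a mean of at least 0.5 FPKM, a scale on which the change of low genes is understated. Of the 10 members, 9 passed this filter. *Cdkn2b* passed narrowly, at a mean of 0.516 FPKM, and *Cdkn2a* did not pass, with at most 0.0815 FPKM in any mouse.

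Several properties of the libraries bear on these genes. *Hras* itself was at 58.8, 28.9 and 16.002 FPKM in HrasG12V mice 2276, 2278 and 2279, against 36.0 to 51.8 FPKM in the WT mice, and FPKM sums both alleles. Mice 2278 and 2279 had high levels of lymphocyte transcripts: 10 of 10 B cell markers and 10 of 10 T cell markers were higher in both mice than in the other 4, with summed B cell levels of 76.9 to 96.1 FPKM against 0.822 to 2.23 FPKM and summed T cell levels of 42.7 to 54.2 FPKM against 3.14 to 4.09 FPKM. In mouse 2276 the summed B cell level, 2.23 FPKM, was above the 0.822 to 1.37 FPKM of the WT mice, and the summed T cell level, 3.14 FPKM, was below their 3.43 to 4.09 FPKM. That mouse had a trend over transcript length, described below with *Rb1*. Fiber transcripts were abundant in every library (*Mylpf*, 10760 to 36114 FPKM), although the fiber genes *Acta1*, *Myh4* and *Atp2a1* were listed at 0 in all 6 mice and *Ckm* in 5, so an entry of 0 in these files does not show that a transcript was absent.

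Promoter sequences of RefSeq (GRCm38.p6, 250 bases before to 50 bases after each annotated start) were available for 8 of the 10 genes, in 11 windows. They were searched for the p53 response element, 2 adjoining copies of the p53 half-site, with the C and G at the core of each copy required and at most 2 mismatches over 20 bases. The element is its own reverse complement, so both strands were covered. Matches were found in 2 of the 8 genes, *Cdkn1a* and *Ccng1*, each with 1 mismatch, against 106 of 27025 genes with a window (0.392%). The window of *Trp53* held an exact match to the κB consensus of the NFκB factors, a motif present in 9.55% of all genes with a window. The stretches are shown because *Trp53* and the 2 p53 targets with a match in a window are the genes on which the comparison turns. Sequence outside the windows was not searched, so a gene without a match here may hold an element elsewhere. Capitals mark the match, the gene's strand is printed 5′ to 3′, and the coordinates are those of the printed bases.
Cdkn1a, upstream start, chr17:29090888-29090978, plus strand: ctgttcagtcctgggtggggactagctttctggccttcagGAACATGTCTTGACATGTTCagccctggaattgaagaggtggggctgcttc
Ccng1, chr11:40755422-40755521, minus strand: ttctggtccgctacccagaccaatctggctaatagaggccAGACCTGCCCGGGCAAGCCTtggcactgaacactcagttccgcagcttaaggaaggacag
Trp53, chr11:69580314-69580363, plus strand: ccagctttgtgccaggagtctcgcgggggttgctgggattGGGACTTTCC

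The *Cdkn1a* match began 51 bases before the upstream of 2 annotated starts, and the window of the downstream start held none. The *Ccng1* match began 195 bases before its start. The κB match of *Trp53* began 5 bases before the start and ran across it. The windows of *Cdkn2a*, *Cdkn2b*, *Cdkn2c*, *Cdkn1b* and *Mdm2* held no p53 element. A match is a description of letters and was not tested as a binding site.

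*Trp53*, at chromosome 11 of GRCm38 from 69580359 to 69591873 on the plus strand, was higher in HrasG12V muscle. It was at 16.5, 18.8 and 15.3 FPKM in HrasG12V mice 2276, 2278 and 2279, against 10.1, 11.9 and 10.9 FPKM in the WT mice 2277, 2280 and 2281. Every HrasG12V mouse thus lay above every WT mouse, and the mice of each genotype lay close together. The means were 16.9 ± 1.78 FPKM (SD, n = 3) and 11.004 ± 0.898 FPKM (SD, n = 3). The fit to the log2 values gave 1.53-fold with a 95% interval of 1.18 to 1.98. On the log2 scale the difference was 0.61 ± 0.16 (SE of the fit, as for the other differences given in this form), and the unadjusted limma p was 0.00663. Adjusted over all 13359 genes it was 0.382, so the difference did not pass the correction for multiple tests. An exact permutation test of 3 against 3 mice cannot give a two-sided p below 0.10, so for single genes limma was the test used.

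The difference in *Trp53* was not confined to the 2 mice with high lymphocyte transcripts. Mouse 2276, whose *Cd79a* and *Cd3e* levels were 0.161 and 0.225 FPKM, lay 0.59 above the WT mean on the log2 scale, between mice 2278 (0.77) and 2279 (0.48). Genes with transcripts of a similar length to *Trp53* had a median of 0.38 above the WT mean in mouse 2276 and of -0.08 and -0.05 in mice 2278 and 2279. Markers of other cells also moved in all 3 HrasG12V mice: in mice 2276, 2278 and 2279 the summed adipocyte markers were at 910, 1092 and 1038 FPKM (529 to 877 in WT mice), the macrophage and neutrophil markers at 87.0, 141 and 75.6 FPKM (57.5 to 70.2) and the endothelial markers at 193, 185 and 188 FPKM (215 to 259). Their part in the level of *Trp53* was not tested. With each library's trend over length removed, the *Trp53* log2 fold change was 0.55 and the unadjusted limma p 0.0239. It stayed between 0.53 and 0.68 when each mouse was left out in turn, with an unadjusted p below 0.05 in 6 of 6 sets. When all libraries were given one total FPKM it was 0.60, but the unadjusted limma p was 0.1001 and the genotypes overlapped. The totals before this rescaling were 413020 to 814013 FPKM, the highest in mouse 2276.

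**Figure D1:**
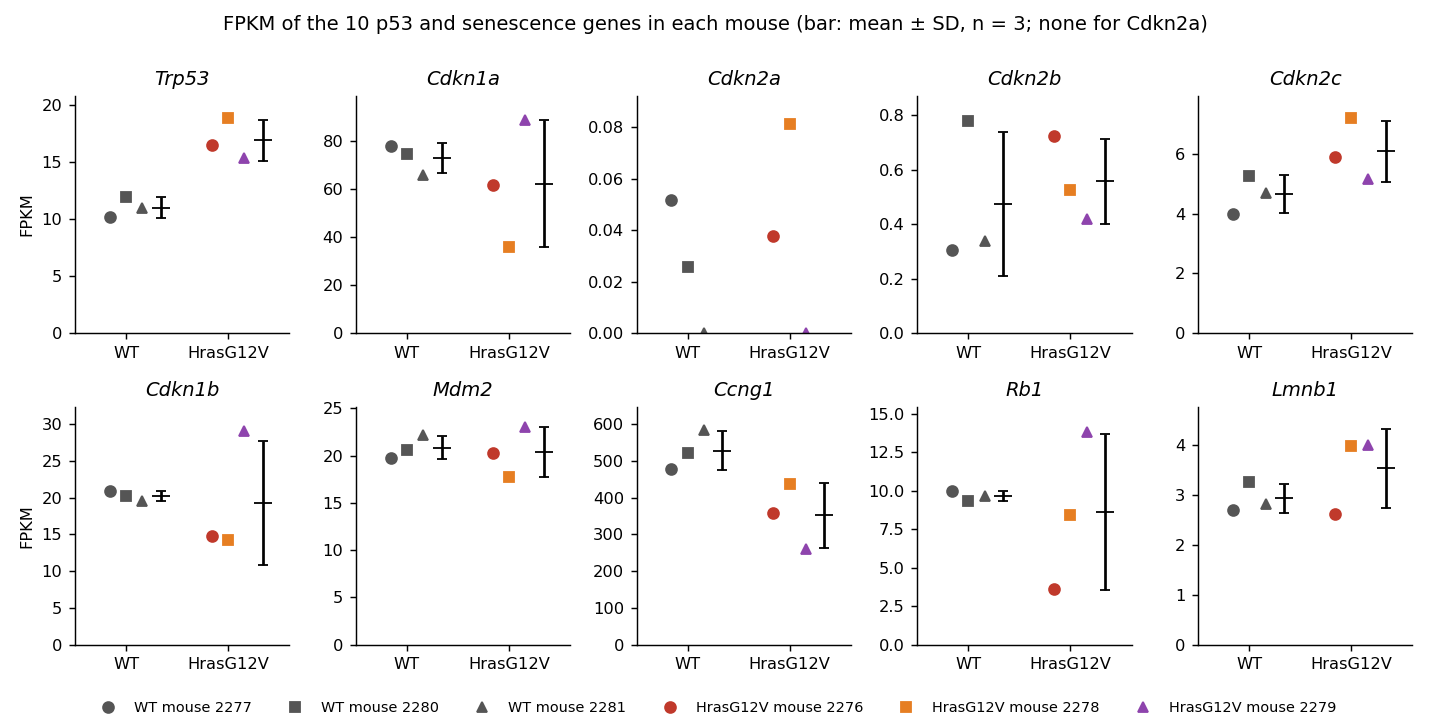
FPKM of each of the 10 genes (y axis, linear, from 0) by genotype (x axis), with 1 point per mouse and the mean ± SD of 3 mice beside it, except for *Cdkn2a*, whose entries of 0 were not averaged. *Trp53* separates the genotypes upwards and *Ccng1* downwards, whereas *Cdkn1a*, *Cdkn1b* and *Rb1* were scattered among the HrasG12V mice on both sides of closely grouped WT values.

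*Cdkn1a*, through which p53 arrests the cell cycle, did not pass the test and was lower on average. The gene, at chromosome 17 from 29090976 to 29100727, was at 61.7, 36.0 and 88.8 FPKM in HrasG12V mice 2276, 2278 and 2279, against 77.9, 74.3 and 65.9 FPKM in the WT mice 2277, 2280 and 2281. The lowest and the highest of the 6 values were both in HrasG12V mice, and mouse 2278, which had the highest *Trp53*, had the lowest *Cdkn1a*. The means were 62.1 ± 26.4 FPKM (SD, n = 3) in HrasG12V and 72.7 ± 6.14 FPKM (SD, n = 3) in WT mice. Their difference was -0.32 ± 0.34 on the log2 scale (limma adjusted p = 0.804), with a 95% interval from 0.454-fold to 1.42-fold. The sign rested on mouse 2278, without which the difference was 0.029.

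*Mdm2*, both a target of p53 and its negative regulator, was at 20.3, 17.7 and 23.0 FPKM in HrasG12V mice 2276, 2278 and 2279, against 19.8, 20.6 and 22.2 FPKM in the WT mice 2277, 2280 and 2281. The WT values lay within the range of the HrasG12V values. The log2 fold change was -0.04 ± 0.17 (limma adjusted p = 0.963). On the log2 scale the 95% interval, from 0.737-fold to 1.28-fold, was the narrowest after that of *Trp53*. The 1.53-fold of *Trp53* lay above the upper bounds of both *Mdm2* and *Cdkn1a*, but its own interval, 1.18 to 1.98, overlapped both of theirs. Whether either fold change differed from that of *Trp53* was not tested.

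*Ccng1* encodes cyclin G1, which recruits a phosphatase to Mdm2, and it was the most abundant of the members, above 98.8% of the genes tested in its mean. It was at 359, 437 and 261 FPKM in HrasG12V mice 2276, 2278 and 2279, against 479, 521 and 583 FPKM in the WT mice 2277, 2280 and 2281. Every HrasG12V mouse lay below every WT mouse, in the opposite direction to *Trp53*. The means were 352 ± 88.3 FPKM (SD, n = 3) and 528 ± 52.4 FPKM (SD, n = 3). The fit to the log2 values gave 0.655-fold with a 95% interval of 0.400 to 1.07. The difference of -0.61 ± 0.30 on the log2 scale did not pass even before adjustment, with an unadjusted limma p of 0.0815 (limma adjusted p = 0.541). With mice left out in turn it ran from -0.78 without mouse 2278 to -0.41 without mouse 2279, and the unadjusted limma p was 0.0385 without mouse 2278. With limma's array weights it was -0.56, with an unadjusted p of 0.0479. After quantile normalization, and after rescaling to the same total, the genotypes overlapped for *Ccng1*.

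The *Ink4* genes of the p16 family encode inhibitors of the kinases Cdk4 and Cdk6. *Cdkn2a*, at chromosome 4 from 89274471 to 89294653, was barely detected in either genotype. It was at 0.0378 and 0.0815 FPKM in HrasG12V mice 2276 and 2278 and listed at 0 in mouse 2279, whereas WT mice 2277 and 2280 had 0.0520 and 0.0259 FPKM and mouse 2281 was listed at 0. FPKM per symbol joins the p16 and Arf transcripts, so these values do not tell them apart. At such levels no difference was detectable. Read counts were not used here, and the smallest change that the depth could show is unknown.

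*Cdkn2b*, its neighbor on chromosome 4 and the gene of p15, was at 0.726, 0.526 and 0.420 FPKM in HrasG12V mice 2276, 2278 and 2279, against 0.307, 0.779 and 0.339 FPKM in the WT mice 2277, 2280 and 2281. WT mouse 2280 was the highest of all 6, and the genotypes overlapped. The difference on the log2 scale was 0.26 ± 0.49 (limma adjusted p = 0.899), which turned to -0.32 after quantile normalization.

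*Cdkn2c*, the gene of p18, was the *Ink4* member with the clearest signal. It was at 5.88, 7.20 and 5.17 FPKM in HrasG12V mice 2276, 2278 and 2279, against 3.98, 5.26 and 4.70 FPKM in the WT mice 2277, 2280 and 2281. Only mouse 2279, just under WT mouse 2280, kept the genotypes from separating. The log2 fold change of 0.38 ± 0.19 did not pass, with an unadjusted limma p of 0.0843 (limma adjusted p = 0.545), and it was positive under all 15 other settings (other pseudocounts, filters, scalings, variances or weights, or a mouse left out). Across the 6 libraries the log2 levels of *Cdkn2c* and *Trp53* had a Pearson's r of 0.914, given as a description: the libraries share their genotype and, in mice 2278 and 2279, their lymphocyte transcripts.

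*Cdkn1b* encodes p27, the inhibitor that holds resting cells out of the cycle. It was at 14.7, 14.2 and 29.1 FPKM in HrasG12V mice 2276, 2278 and 2279, against 20.9, 20.2 and 19.6 FPKM in the WT mice 2277, 2280 and 2281. All HrasG12V mice lay outside the narrow WT range, 2 below it and 1 above it. On the log2 scale the genotypes differed by -0.15 ± 0.30 (limma adjusted p = 0.908). Without mouse 2279 this was -0.48, at an unadjusted limma p of 0.0127, whereas without mouse 2276 it was 0.0067 and without mouse 2278 it was 0.033. *Cdkn1b* and *Cdkn1a* shared this order of the HrasG12V mice, with mouse 2279 highest, and their r over the 6 libraries was 0.830.

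*Rb1*, at chromosome 14 from 73183673 to 73325822 on the minus strand, was at 3.60, 8.42 and 13.8 FPKM in HrasG12V mice 2276, 2278 and 2279, against 9.98, 9.35 and 9.67 FPKM in the WT mice 2277, 2280 and 2281. This was the widest scatter of the members: the HrasG12V mice spanned 1.91 on the log2 scale and the WT mice 0.09. The mean difference was -0.36 ± 0.45 on the log2 scale (limma adjusted p = 0.838) and became 0.16 without mouse 2276. Mouse 2276 had a steeper trend over transcript length than the other libraries, from a median of 0.78 above the WT mean for transcripts under 1000 bases to -0.57 for those of 6000 bases and over. The corresponding medians ran from -0.13 to -0.06 in mouse 2278 and from -0.14 to 0.01 in mouse 2279. The *Rb1* transcript has 4656 bases, and genes of similar length had a median of -0.23 in mouse 2276, against -1.40 for *Rb1*. Exons of *Rb1* share 488 bases with *Rcbtb2* and 408 bases with *Lpar6*, both on the opposite strand. The library kit kept strand, but the strand setting of the quantification is not given in the sources used here, so the FPKM of *Rb1* is uncertain to that extent. *Lpar6* was at 4.16 FPKM in mouse 2276 and 3.25 to 5.68 FPKM in WT mice.

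**Figure D2:**
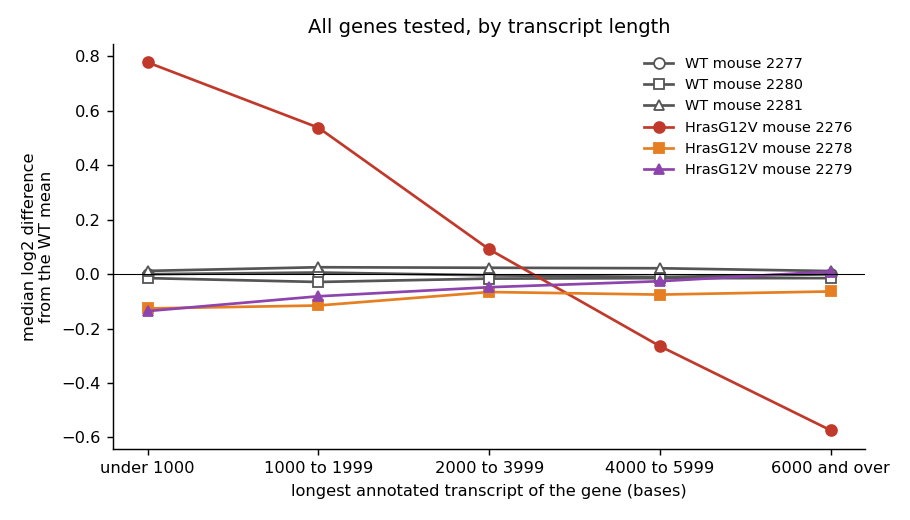
Median difference from the WT mean in log2(FPKM + 0.1) (y axis) of the genes tested, in 5 classes of the longest annotated transcript in bases (x axis), with 1 line per mouse. Mouse 2276 falls from 0.78 for transcripts under 1000 bases to -0.57 for those of 6000 bases and over, whereas the other 5 libraries stay between -0.14 and 0.03.

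*Lmnb1*, at chromosome 18 from 56707813 to 56753424, encodes lamin B1 of the nuclear envelope. It was at 2.61, 3.97 and 3.99 FPKM in HrasG12V mice 2276, 2278 and 2279, against 2.69, 3.25 and 2.82 FPKM in the WT mice 2277, 2280 and 2281. The 2 mice with high lymphocyte transcripts were above all WT mice, and mouse 2276, where they were far lower, was below all WT mice. The genotypes differed by 0.24 ± 0.21 on the log2 scale (limma adjusted p = 0.739). Without mouse 2276 the difference was 0.44, and the unadjusted limma p was 0.0159. Without both mice 2278 and 2279 it was -0.15, and that p was 0.414, the latter with a single HrasG12V mouse whose spread is assumed to equal that of the WT mice. The part of the lymphocyte transcripts in this pattern was not tested. The 95% interval over all 6 mice ran from 0.833-fold to 1.68-fold.

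**Figure D3:**
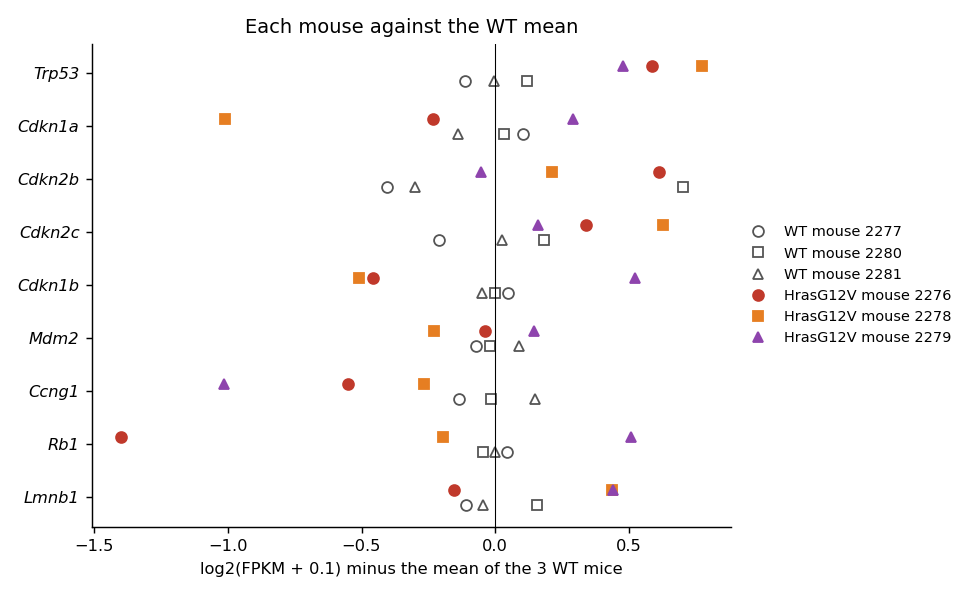
Difference of each mouse from the mean of the 3 WT mice in log2(FPKM + 0.1) (x axis) for the 9 members tested (y axis), with filled symbols for HrasG12V mice and open symbols for WT mice. For *Trp53* all 3 HrasG12V mice lie at 0.48 to 0.77 and for *Ccng1* at -1.01 to -0.27, while for *Cdkn1a*, *Cdkn1b*, *Mdm2*, *Rb1*, *Cdkn2b* and *Lmnb1* they lie on both sides of 0.

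Of the 9 members tested, 1 had an unadjusted limma p below 0.05, *Trp53*, which was higher in HrasG12V muscle. Among all genes tested 10.2% had such a p, 5.18% upwards and 4.99% downwards, so at 11.1% the members were near the share of genes at large. No member had a limma adjusted p below 0.05, against 0.0599% of all genes. The genotypes did not overlap for 2 members, *Trp53* upwards and *Ccng1* downwards. Over all genes 8.11% were separated upwards and 10.4% downwards. The median log2 fold change was -0.04 over the 9 members and -0.03 over all genes. When all libraries were given one total FPKM, 0 members passed unadjusted and 0 were separated. Without mouse 2276, 2278 or 2279 the number with such a p was 2, with *Lmnb1*, *Ccng1* and *Cdkn1b* in turn joining *Trp53*. Over all genes the number was 712 after the rescaling and 3979 without mouse 2276, beside 1358 in the main fit.

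The HrasG12V mice differed from each other more than the WT mice did for 8 of the 9 members, all but *Cdkn2b*. That is 88.9% of the members, and the same held for 86.9% of all genes tested.

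In the order of their mean levels in WT muscle, the members ran from *Ccng1* (528 FPKM) through *Cdkn1a* (72.7 FPKM) to *Mdm2* and *Cdkn1b* (20.8 and 20.2 FPKM), *Trp53* and *Rb1* (11.004 and 9.67 FPKM), *Cdkn2c* (4.65 FPKM), *Lmnb1* (2.92 FPKM) and *Cdkn2b* (0.475 FPKM), with *Cdkn2a* last. *Mdm2* and *Cdkn1b* did not differ beyond the spread of the WT mice, since their values overlapped. In HrasG12V muscle *Trp53*, at a mean of 16.9 FPKM, had a range that overlapped those of *Mdm2* (20.3 FPKM) and *Cdkn1b* (19.3 FPKM).

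Other targets of p53 were examined as a list of 28 genes, of which 24 passed the filter on low values. Here and in the lists that follow, genes are said to rise or fall where the unadjusted limma p was below 0.05. Among the 24, 1 rose and 3 fell, 16.7% in all beside 10.2% of all genes, and none passed the adjusted limit. The median log2 fold change was -0.02, beside -0.03 over all genes, and the genotypes were separated for 2 upwards and 5 downwards, beside 8.11% and 10.4% of all genes. The number called was 0 without WT mouse 2277 or 2281, 1 without WT mouse 2280 and 8 without mouse 2276. Over all 13359 genes it was 635, 606, 709 and 3979 in these sets, in the same order, beside 1358 in the main fit. For the targets it was 1 when all libraries were given one total FPKM (712 over all genes). It was 2 without moderation or with the length trend removed. The gene that rose was *Bbc3*, which encodes the pro-apoptotic protein Puma. It was at 1.52, 1.56 and 2.50 FPKM in HrasG12V mice 2276, 2278 and 2279, against 0.916 to 1.21 FPKM in the WT mice (log2 fold change 0.71 ± 0.27, limma adjusted p = 0.477).

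The genes that fell were the death receptor *Fas*, the ribonucleotide reductase subunit *Rrm2b* and the translesion polymerase *Polk*. *Fas* was at 5.43, 5.10 and 6.59 FPKM in HrasG12V mice 2276, 2278 and 2279, against 7.25 to 8.48 FPKM in the WT mice, a log2 fold change of -0.48 ± 0.16 (limma adjusted p = 0.446). *Rrm2b* was at 3.40, 5.64 and 6.66 FPKM against 7.49 to 9.24 FPKM, a difference of -0.70 ± 0.26 (limma adjusted p = 0.477). *Polk* was at 1.03, 1.86 and 1.47 FPKM against 2.12 to 2.30 FPKM, a difference of -0.60 ± 0.24 (limma adjusted p = 0.488). For these 4 genes no HrasG12V value overlapped the WT values. Rescaling to one total ended all 4 calls, whereas in the 6 sets that lacked 1 mouse the unadjusted call held in 3 for *Fas* and in 2 of 6 for each of *Bbc3*, *Rrm2b* and *Polk*.

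The p53 targets most like *Cdkn1a* over the 6 libraries were *Tigar* (listed as 9630033F20Rik), *Dglucy* (listed as 9030617O03Rik) and *Sesn1*, with r of 0.903, 0.901 and 0.895 of log2 levels. *Tigar*, a regulator of glycolysis, was at 16.5, 11.1 and 24.0 FPKM in HrasG12V mice 2276, 2278 and 2279, against 20.5 to 25.5 FPKM in the WT mice. *Sesn1*, which encodes a stress-induced inhibitor of mTORC1, was at 18.2, 14.9 and 38.5 FPKM against 23.3 to 28.8 FPKM. *Dglucy* was at 2.90, 2.15 and 4.09 FPKM against 4.14 to 4.36 FPKM, with every HrasG12V mouse below every WT mouse. As for *Cdkn1a*, the lowest level was in mouse 2278, and among the HrasG12V mice the highest was in mouse 2279. These genes were chosen for their likeness among 24, so the coefficients are a description.

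**Figure D4:**
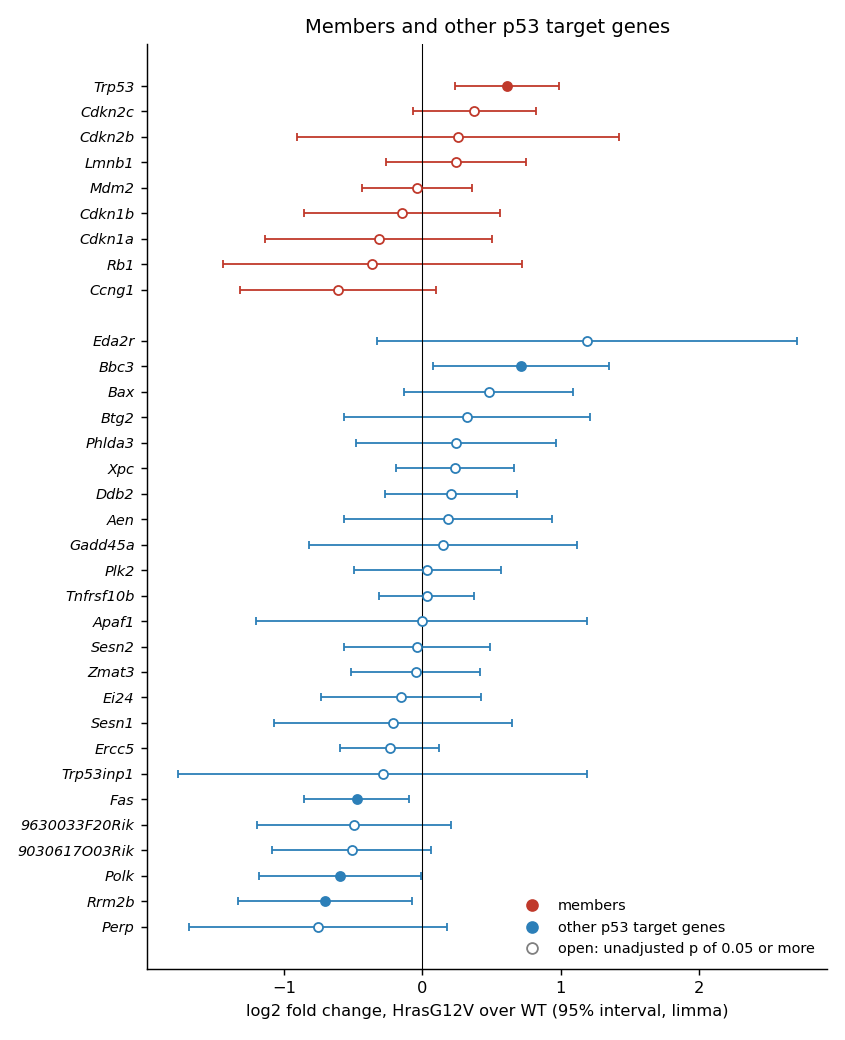
Log2 fold change of HrasG12V over WT (x axis) with its 95% limma interval for the 9 members tested and 24 other p53 target genes (y axis), filled where the unadjusted p is below 0.05. Among the members the interval of *Trp53* lies above 0, and among the targets that of *Bbc3* lies above 0 and those of *Fas*, *Polk* and *Rrm2b* below it.

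Among 16 regulators and relatives of p53, 14 were tested, of which 1 rose and 1 fell, 14.3% beside 10.2% of all genes, with a median log2 fold change of -0.04. Without mouse 2276 there were 6 called, while the number over all genes went from 1358 to 3979. *Hipk2*, a kinase that phosphorylates p53, was at 5.72, 10.04 and 8.56 FPKM in HrasG12V mice 2276, 2278 and 2279, against 17.8 to 21.5 FPKM in the WT mice. The highest HrasG12V value was thus far below the lowest WT value, a log2 fold change of -1.29 ± 0.23 (limma adjusted p = 0.288), where the unadjusted p was 0.00113. It stayed between -1.46 and -1.06 under these 15 settings, with an unadjusted p below 0.05 in each. Without both mice 2278 and 2279 it was -1.75, a value of mouse 2276 alone, the mouse with the trend over transcript length. The part of that trend in the level of *Hipk2* is not given here. *Trp63*, the p53 relative p63, was at 5.57, 5.17 and 6.58 FPKM against 1.98 to 3.51 FPKM, a log2 fold change of 1.06 ± 0.23 (limma adjusted p = 0.349). Its unadjusted p was likewise below 0.05 in 15 of 15 settings, but not without both mice 2278 and 2279, where it was 0.0593 at a log2 fold change of 1.01. Mouse 2276 carried both differences as well as mice 2278 and 2279 did. *Mdm4*, the partner of Mdm2, differed by -0.09 ± 0.42 on the log2 scale, lowest in mouse 2276 (5.53 FPKM) and above the WT range of 11.8 to 12.5 FPKM in mice 2278 (15.9) and 2279 (16.6).

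Downstream of the kinase inhibitors, 21 of 22 genes for D and E cyclins, their kinases, E2F factors and further inhibitors were tested, and 4 rose and 0 fell, 19.0% beside 10.2% of all genes, with a median log2 fold change of 0.13. The number was 1 without WT mouse 2277 or 2281, and 2 without WT mouse 2280, without mouse 2278 or without moderation. Over all genes 635, 606 and 709 were called without WT mice 2277, 2281 and 2280 in turn, and 1317 without moderation, beside 1358 in the main fit. *Ccnd1*, encoding the cyclin D1 that Ras signaling induces, was at 7.94, 11.6 and 4.30 FPKM in HrasG12V mice 2276, 2278 and 2279, against 3.19 to 3.75 FPKM in the WT mice (log2 fold change 1.06 ± 0.35, limma adjusted p = 0.439). *Ccne1*, *Cks1b* and *E2f2* had log2 fold changes of 1.14, 0.92 and 0.89, each with all HrasG12V mice above all WT mice. *Cks1b* was highest in mouse 2276 (7.89 FPKM), the mouse with the trend over transcript length. In mouse 2279 it was at 3.37 FPKM, just above the highest WT value of 3.33 FPKM. *Ccne1*, with a WT mean of 0.312 FPKM, passed the filter of 0.5 FPKM only through its level in HrasG12V mice. With a filter of 1 FPKM it was not tested and 3 genes of the list were called. In the 6 sets that lacked 1 mouse, the unadjusted p was below 0.05 in 1 for *Ccnd1*, 2 for *Cks1b*, 3 for *E2f2* and 4 for *Ccne1*. The part of lymphocytes, macrophages and satellite cells, some of whose markers also rose, was not tested. *Cdkn1c*, the gene of p57, differed by -0.68 ± 0.35 on the log2 scale (limma adjusted p = 0.567).

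Of 20 proliferation markers 18 were tested, and 5 rose and 0 fell, 27.8% beside 10.2% of all genes, with a median log2 fold change of 0.94. *Mki67*, *Top2a*, *Ccnb1*, *Ccnb2*, *Cdk1*, *Cdc20*, *Plk1* and *Mcm5* had WT means of 0.212 to 0.498 FPKM, below the filter of 0.5 FPKM. They were tested only because of their level in HrasG12V mice, so the filter selected in part for a rise. Of the 5 that rose, *Mcm2*, *Mcm3*, *Mcm5* and *Mcm7* encode subunits of the replicative helicase. *Mcm2* was at 3.32, 4.08 and 2.66 FPKM in HrasG12V mice 2276, 2278 and 2279, against 1.70 to 1.90 FPKM in the WT mice (log2 fold change 0.85 ± 0.20, limma adjusted p = 0.369). *Mcm3*, *Mcm5* and *Mcm7* had log2 fold changes of 1.20, 1.56 and 0.66, and for all 4 genes mouse 2276 too was above every WT mouse. *Mki67*, a marker of cycling cells, was at 0.135 FPKM in mouse 2276, within the WT range of 0.0960 to 0.359 FPKM, but reached 2.78 FPKM in mouse 2278 and 0.855 FPKM in mouse 2279 (limma adjusted p = 0.636). The summed level of the 20 markers was 45.9, 75.2 and 51.1 FPKM in mice 2276, 2278 and 2279 and 32.4 to 37.8 FPKM in WT mice, and 14 of the 20 were higher in both mice with high lymphocyte transcripts than in all others. Of 7 satellite cell markers, 3 rose and 0 fell, with summed levels of 39.3, 29.5 and 37.2 FPKM in mice 2276, 2278 and 2279 against 27.5 to 34.4 FPKM, and the summed macrophage and neutrophil markers were above WT in all 3 mice. The part of lymphocytes, satellite cells or macrophages in these levels was not tested. When all libraries were given one total FPKM, 0 of the 18 passed, and without mouse 2276 there were 15. Over all genes the number was 712 and 3979 under these settings, beside 1358 in the main fit.

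Secreted genes associated with senescence were sparse. Of 20 listed, 12 passed the filter, and *Il6*, *Il1a*, *Cxcl2*, *Areg* and *Csf2* were at most 0.400 FPKM in every mouse. Among the 12, 3 rose and 0 fell, 25.0% beside 10.2% of all genes, with a median log2 fold change of 0.62. *Il1b*, *Cxcl1* and *Ccl2* had WT means of 0.215, 0.324 and 0.423 FPKM. They passed the filter of 0.5 FPKM only through their level in HrasG12V mice, so the filter selected in part for a rise. The number called was 1 when all libraries were given one total FPKM or the length trend was removed, 6 with array weights and 5 without mouse 2276. Over all genes it was 712 after that rescaling, 3042 with array weights and 3979 without mouse 2276, beside 1358 in the main fit. *Ccl8* was at 1.77, 5.27 and 3.92 FPKM in HrasG12V mice 2276, 2278 and 2279, against 0.775 to 1.02 FPKM in the WT mice (log2 fold change 1.84 ± 0.40, limma adjusted p = 0.345). *Ccl2*, another chemokine that draws monocytes, and *Plaur*, the urokinase receptor, had log2 fold changes of 1.20 and 1.11. All 3 were higher in mice 2278 and 2279 than in mouse 2276, and all 3 were above the WT range in mouse 2276. The markers of macrophages and neutrophils, whose summed levels are given with *Trp53*, were also above WT in mice 2276, 2278 and 2279. Unlike the 3 secreted genes, their sum was lower in mouse 2279 than in mouse 2276. Of these markers, 3 of 11 tested rose. The part of these cells in the secreted genes was not tested. *Igfbp3* and *Igfbp7*, which senescent cells also secrete, had log2 fold changes of 0.22 and -0.04 and neither passed.

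Of 11 genes, 8 of the nuclear envelope and its partners, *Hmgb1*, *Hmgb2* and the lysosomal enzyme gene *Glb1*, 1 rose and 0 fell, 9.09% beside 10.2% of all genes, with a median log2 fold change of 0.07. *Hmgb2* was at 3.63, 9.48 and 6.43 FPKM in HrasG12V mice 2276, 2278 and 2279, against 2.26 to 3.02 FPKM in the WT mice (log2 fold change 1.17 ± 0.34, limma adjusted p = 0.412). It was highest in the 2 mice with high lymphocyte transcripts, whose part in it was not tested. Without both, the log2 fold change was 0.44 and the unadjusted limma p was 0.113, and the call was also lost without WT mouse 2281 or mouse 2279 and when all libraries were given one total FPKM. *Glb1*, the source of senescence-associated β-galactosidase, differed by 0.05 ± 0.28 on the log2 scale (limma adjusted p = 0.973). Of 12 Ras-linked and chromatin regulators of the *Cdkn2a* locus and of senescence, whose median was -0.09, 0 fell and 1 rose (8.33%), *Ezh2*, the Polycomb methyltransferase that keeps *Cdkn2a* silent. It was at 2.93, 4.08 and 3.87 FPKM against 1.83 to 2.50 FPKM in WT mice, a log2 fold change of 0.68 ± 0.20 (limma adjusted p = 0.423). Its unadjusted p was above 0.05 without WT mouse 2277, without mouse 2278, without both mice 2278 and 2279 and when all libraries were given one total FPKM. The number called in this list was 0 without WT mouse 2277 or mouse 2278, 2 without mouse 2279, 6 without mouse 2276, 5 with array weights and 0 after that rescaling. Over all genes 635 were called without WT mouse 2277, 3979 without mouse 2276, 3042 with array weights and 712 after the rescaling. In the main fit 1358 were. *Bmi1*, of the same silencing system, differed by -0.42 ± 0.28 (limma adjusted p = 0.664).

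**Figure D5:**
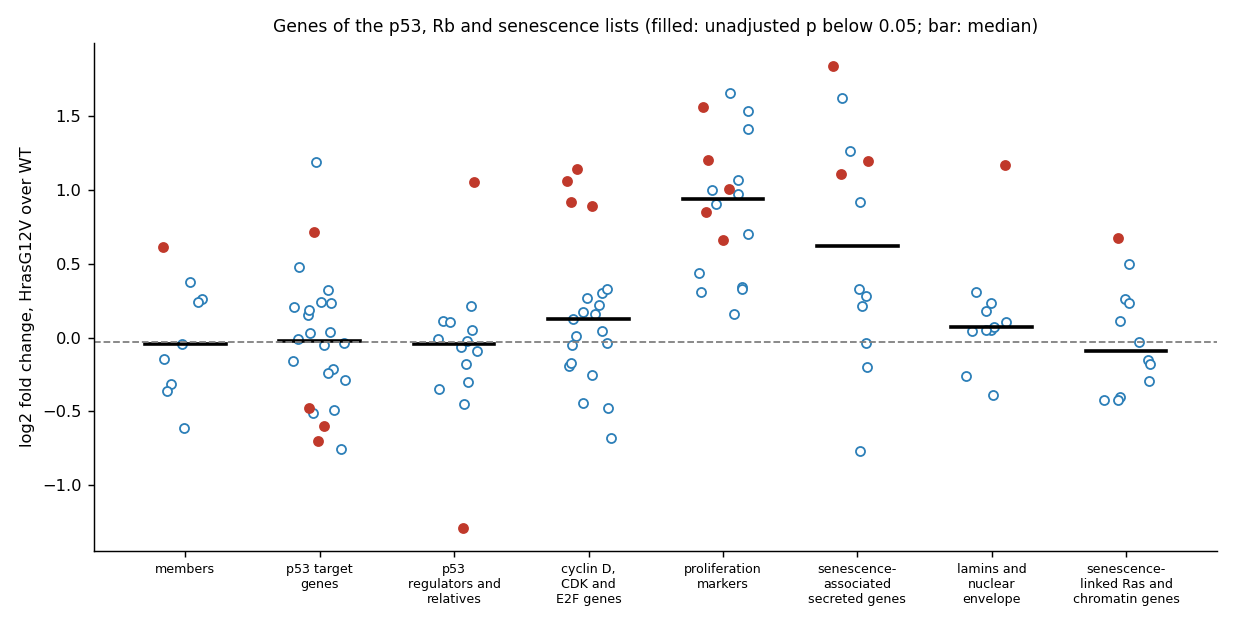
Log2 fold change of HrasG12V over WT (y axis) for every tested gene of the members and of 7 lists (x axis), filled where the unadjusted limma p is below 0.05, with a bar at each list's median and a dashed line at the median of all genes (-0.03). The medians of the members (-0.04) and of the p53 targets (-0.02) lie close to that line, and those of the proliferation markers (0.94) and secreted genes (0.62) lie above it. Both of the latter lists hold genes that passed the filter on low values only through their level in HrasG12V mice, which raises their medians.

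Over the 13359 genes, 38 held a p53 element in a promoter window. Of these 4 rose and 3 fell at an unadjusted limma p below 0.05, with a median log2 fold change of 0.04, and among the 9790 tested genes with a window 5.05% rose and 4.99% fell. *Gpr132*, counted among the 4, had a WT mean of 0.200 FPKM and passed the filter only through mice 2278 and 2279. *Cdkn2a* was the member with a match to E2F letters (TTTCCCGC or TTTGGCGC on either strand, found in 1.80% of all genes with a window), and 4 of 17 proliferation markers with a window held them.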

How the data were processed

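RNAseq libraries of gastrocnemius muscle from 3 HrasG12V and 3 WT mice were grouped by their sample titles. Per the labels and methods, the authors made stranded mRNA libraries, mapped single-end reads with TopHat to GRCm38 (mm10) and deposited FPKM from Cufflinks and Cuffnorm, 1 value per symbol and library. No source used here gives the tool versions or the annotation. Read counts were not used here, so the depth behind an FPKM is unknown and precision is known from the spread between mice.

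Here log2(FPKM + 0.1) of 13359 genes with a mean of at least 0.5 FPKM was compared by limma (version 3.58.1, R 4.3.3), with moderated variances, a mean-variance trend and no covariate, with Benjamini-Hochberg adjustment over all genes tested and a limit of 0.05. limma replaced the study's unpaired test. The members and lists were chosen with earlier results of these data known. Named genes were all 10 members, up to 4 genes with the lowest unadjusted p below 0.05 in each of 7 lists, and the 3 p53 targets most correlated with *Cdkn1a*; *Mdm4*, *Cdkn1c*, *Mki67*, *Igfbp3*, *Igfbp7*, *Glb1*, *Bmi1* and the low secreted genes were added after their values were seen. Alternatives were 15 planned settings (pseudocounts, filters, scalings, no moderation, array weights, each mouse left out) and 2 added after the data were seen (both mice 2278 and 2279 left out, trend over transcript length removed). Transcript lengths and positions came from GENCODE vM21 (GRCm38), with lengths for 99.3% of the genes tested. In simulated data with the means and WT spread of the 13359 genes, 191 of 200 genes changed by 1.5 on the log2 scale and 5.49% of the unchanged genes had an unadjusted p below 0.05. Smaller changes and the wider HrasG12V spread were not simulated. Tables used pandas 2.3.3 and numpy 2.4.6 under Python 3.11.15, and plots matplotlib 3.10.9.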

Additional observations from a re-analysis of the deposited data

How the results depend on the processing

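No paired analysis was possible because the labels do not give the litter of each mouse. The number of members with an unadjusted limma p below 0.05 (1 as reported) was 0 when all libraries were given one total FPKM, 3 with array weights, and 1 to 2 with each mouse left out. With both mice 2278 and 2279 left out, the log2 differences were 0.59 for *Trp53*, -1.40 for *Rb1* and -0.46 for *Cdkn1b*. These are values of mouse 2276 alone, in a fit that takes its spread from the WT mice, so no number of passing members is given. The number separated between genotypes (2) was 0 after rescaling, 1 after quantile normalization, 2 to 6 with each mouse left out (6 without mouse 2279, 4 without WT mouse 2280) and 7 without both mice. Of the genes in the 7 lists 20 had an unadjusted p below 0.05, 7 after rescaling, 41 with array weights, 55 without both mice and 10 to 46 with each mouse left out (46 without mouse 2276, 10 and 11 without WT mice 2277 and 2281). The 7 lists held 112 tested genes. Over all 13359 genes, 1358 had an unadjusted limma p below 0.05, with 712 after rescaling and 3042 with array weights. With each mouse left out it was 606 to 3979 (3979 without mouse 2276, 635 and 606 without WT mice 2277 and 2281). The 55 comes from the fit with mouse 2276 alone, so no conclusion is drawn from it. Directions turned for *Cdkn2b* (-0.32) and *Mdm2* (0.0032) after quantile normalization, for *Rb1* with array weights (0.027), for *Mdm2* with the length trend removed (6.6e-05) and for *Lmnb1* without both mice (-0.15). With each mouse left out, *Cdkn1a* ran from -0.62 to 0.029, *Cdkn1b* from -0.48 to 0.033, *Mdm2* from -0.13 to 0.054 and *Rb1* from -0.80 to 0.16. The causes were not tested. Having 3 mice per genotype limits precision: the 95% interval of *Rb1* ran from 0.368-fold to 1.65-fold.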

Other observations

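The genes outside the lists with a p53 element in a window and an unadjusted limma p below 0.05 were chosen after their values were seen. *Cd72*, a B cell coreceptor, *Capg*, an actin-capping protein, *Bmp4*, a growth factor, and *Gpr132*, a receptor of lymphocytes and macrophages, were higher, and *Rab21*, *Elp4* and *Rhbdd1* were lower. *Cd72* was at 6.13, 6.88 and 5.77 FPKM in HrasG12V mice 2276, 2278 and 2279, against 3.08 to 3.29 FPKM in the WT mice (log2 fold change 0.95 ± 0.14 SE, limma adjusted p = 0.261). *Capg* was at 10.6, 12.1 and 13.1 FPKM against 5.94 to 7.53 FPKM (log2 fold change 0.87 ± 0.17 SE). *Gpr132* was at 0.208 FPKM in mouse 2276, 2.48 and 3.87 FPKM in mice 2278 and 2279 and 0.167 to 0.233 FPKM in WT mice. Its genotypes thus overlapped, and it passed the filter of 0.5 FPKM only through mice 2278 and 2279.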
